A study of Mus musculus with 11 samples.

Results

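The glucocorticoid receptor, its relative the mineralocorticoid receptor, the enzyme that renews active glucocorticoid inside cells and 7 genes known to respond to glucocorticoids were followed in the gonadal white adipose tissue (WAT) of mice fed a high fat diet (HFD). The 10 genes were chosen by symbol for these roles, with the log2 CPM values of these 11 mice and the differences between the groups already known. The values of the members, their intervals and the count of members past the threshold are therefore a description and not evidence, and no p-value is given for a member. The table used here lists 9 of the 10 genes among 12787 genes, and Fkbp5, an immunophilin that lowers the affinity of the receptor for hormone, was not analysed here.

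Glucocorticoids reach fat from the adrenal cortex and are also regenerated there from inactive 11-keto steroids. They bind the glucocorticoid receptor (Nr3c1), which waits in the cytosol with chaperones, moves to the nucleus and acts at DNA elements built around the letters TGTTCT. In WAT the hormone is known for promoting adipocyte differentiation, for adjusting lipolysis and for restraining inflammation. Its level in blood follows the time of day.

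All 11 libraries came from wildtype male C57BL/6J mice kept on the same 60% HFD for 20 weeks. The control group was 5 mice with vehicle, and the IMC group was 6 mice whose diet held 0.06% w/w iodomethylcholine (IMC), an inhibitor of the gut bacterial lyase that makes trimethylamine from choline. Each mouse gave 1 library, and 1 further vehicle library was dropped by the authors at quality control. The sources used here do not tie an age, a fasting state or a time of day of collection to these 11 mice. Between 22320022 and 25155366 reads fell on the listed genes of a library, and the depth of the groups was not told apart (p = 0.154, exact permutation test, two-sided). The values are log2 CPM, reads relative to the scaled size of the library, in which 1 read was worth 0.0403 to 0.0450 CPM. Adipocyte markers were present in every library at a summed level of 13.1 to 14.4 log2 CPM.

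Sequences are shown for Mt1, Mt2 and Sgk1. The coding sequences bear on how reads are counted, and the promoter windows were not related to any level. Mt1 and Mt2 are neighbouring genes for 2 small cysteine-rich proteins that bind zinc and copper. They were compared because, between closely alike genes, the reads of one can be counted for the other. The coding sequences, read from the GENCODE annotation on GRCm38, are both 186 bases long and spread over 3 exons. They share 148 positions (79.6%), and the 38 positions that differ are in capitals. The longest stretch without a difference is 20 bases, so a read within the coding part would meet a difference unless it were very short.
Mt1 coding sequence, exons within chr8:94179311-94180193, plus strand: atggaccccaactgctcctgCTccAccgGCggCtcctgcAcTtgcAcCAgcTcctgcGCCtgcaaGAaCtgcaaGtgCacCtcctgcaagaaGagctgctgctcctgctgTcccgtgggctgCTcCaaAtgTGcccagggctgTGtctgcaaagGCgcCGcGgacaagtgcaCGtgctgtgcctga
Mt2 coding sequence, exons within chr8:94172848-94173427, plus strand: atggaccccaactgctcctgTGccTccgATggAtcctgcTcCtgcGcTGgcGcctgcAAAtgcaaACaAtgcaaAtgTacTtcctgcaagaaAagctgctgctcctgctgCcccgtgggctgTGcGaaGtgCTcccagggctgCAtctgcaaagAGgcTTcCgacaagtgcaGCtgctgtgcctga

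Metallothionein genes respond to metals through the core sequences TGCACNC and TGCGCNC, and to glucocorticoids. The windows below run from 250 bases before to 50 bases after a RefSeq start (GRCm38.p6), with these metal cores in capitals on whichever strand they lie. The Mt2 window holds 4 cores and the Mt1 window holds 3. A core of this kind stood in 25.7% of 32851 promoter windows of the same length. It also stood in windows of Hsd11b1, Nr3c2 and Sgk1.
Mt2 promoter, chr8:94172368-94172667, plus strand: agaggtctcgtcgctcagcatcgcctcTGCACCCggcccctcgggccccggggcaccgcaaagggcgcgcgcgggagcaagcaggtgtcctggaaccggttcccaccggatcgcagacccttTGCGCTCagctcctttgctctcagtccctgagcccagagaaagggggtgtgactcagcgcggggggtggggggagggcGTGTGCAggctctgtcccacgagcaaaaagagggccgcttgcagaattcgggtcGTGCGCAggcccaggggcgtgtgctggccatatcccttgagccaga
Mt1 promoter, chr8:94178839-94179138, plus strand: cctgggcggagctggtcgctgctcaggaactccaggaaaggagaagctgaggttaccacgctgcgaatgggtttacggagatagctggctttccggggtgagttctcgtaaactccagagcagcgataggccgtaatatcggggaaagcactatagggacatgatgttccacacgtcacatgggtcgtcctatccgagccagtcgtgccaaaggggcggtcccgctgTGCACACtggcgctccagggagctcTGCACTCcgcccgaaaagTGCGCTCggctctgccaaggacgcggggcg

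Windows of 7 of the 10 genes were read, 14 windows in all. Sgk1 alone gave 6 of them, so a count of windows is not a count of genes. Rasd1 and Zbtb16 had no window. Nr3c1 was left out of this reading, so the counts of member windows do not cover the receptor gene itself. The hexamer TGTTCT, read on both strands, was in 4 of the 14 windows, which belong to Sgk1 and Tsc22d3, and in 19.0% of all windows. The looser spaced core, ACA and TGT with 3 bases between them, was in 3 of the 14, of Mt1 and Sgk1, and in 6.85% of all windows. A full palindrome, AGAACA followed by 3 bases and TGTTCT, occurred in 3 of the 32851 windows (0.00913%), those of Sgk1, Acnat2 and Gm35041. The Sgk1 window that holds it belongs to 1 of 6 annotated Sgk1 starts. The palindrome, in capitals, begins at base -189 relative to that start and contains a match to each of the shorter motifs.
Sgk1 promoter, chr10:21993640-21993939, plus strand: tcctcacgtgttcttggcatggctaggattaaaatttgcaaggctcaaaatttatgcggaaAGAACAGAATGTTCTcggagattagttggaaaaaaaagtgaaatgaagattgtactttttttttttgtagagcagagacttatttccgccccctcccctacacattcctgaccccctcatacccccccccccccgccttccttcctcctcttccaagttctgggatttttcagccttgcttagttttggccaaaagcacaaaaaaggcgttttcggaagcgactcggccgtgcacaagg
A match is a description of these letters, and binding of the receptor was not measured.

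Of the 9 listed members, 4 passed an adjusted p under 0.05 with a higher level after IMC (limma with Benjamini-Hochberg adjustment over all 12787 genes) and none a lower one. Of all genes in the table, 40.9% passed, 20% higher and 21.0% lower, and with scaling to total reads 2202 genes were higher and 3261 lower in place of 2556 and 2680. Because the choice of the members used this comparison nothing is read from their count. The 4 genes were Rasd1, Hsd11b1, Nr3c2 and Mt2. Rasd1, Hsd11b1 and Nr3c2 had no overlap between the groups, as had 23.1% of all genes. The median difference of the 9 members was 0.15 on the log2 scale, beside -0.03 over all genes, and their median absolute difference was 0.22 beside 0.17.

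**Figure D1:**
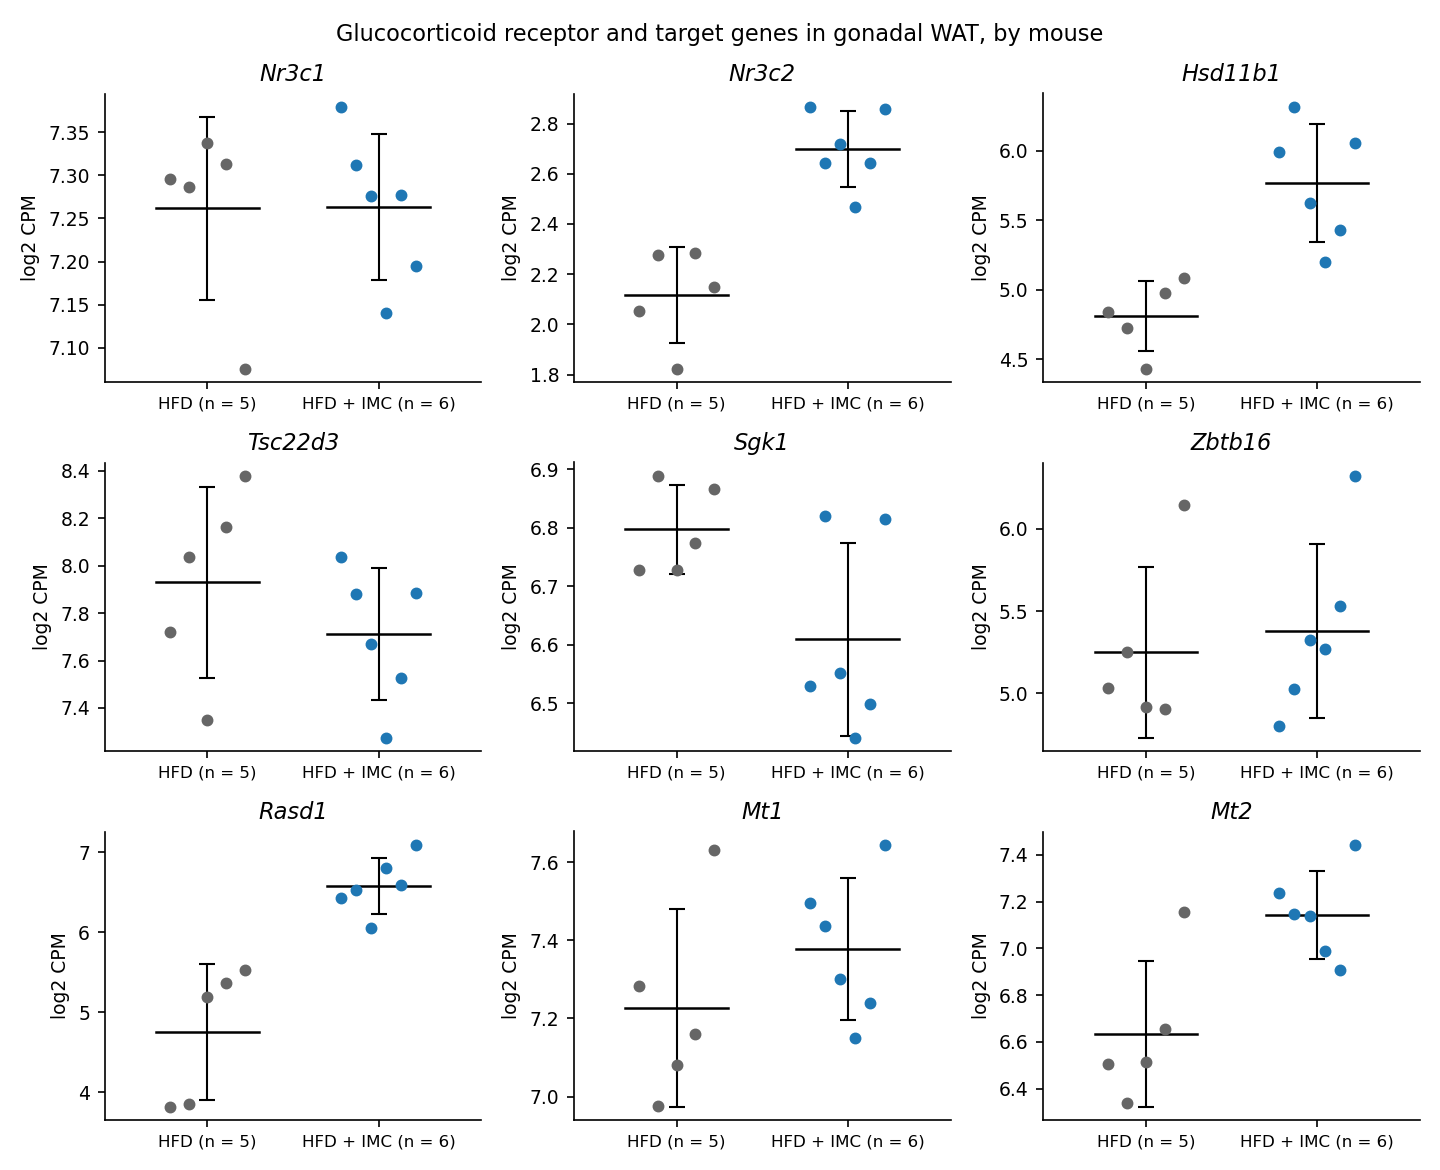
Level of each of the 9 listed genes by mouse in log2 CPM, HFD mice in grey (n = 5) and IMC-treated mice in blue (n = 6). Lines and bars give the mean and SD, and each panel has its own axis. The groups are apart for Nr3c2, Hsd11b1 and Rasd1 and share a range for the other 6 genes.

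Nr3c1 (chr18:39410545-39519421 on GRCm38.p6) encodes the glucocorticoid receptor itself. Its level was 7.30, 7.29, 7.34, 7.31 and 7.08 log2 CPM in the 5 HFD mice, and it ran from 7.14 through a median of 7.28 to 7.38 in the 6 IMC-treated mice. The groups overlapped, and 1 HFD mouse, number 5, lay below all the others. The means were 7.26 ± 0.11 (SD, n = 5) and 7.26 ± 0.09 (SD, n = 6), a difference of 0.00 with a 95% interval from -0.12 to 0.12. Among the members this was the narrowest interval.

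Nr3c2 (chr8:76898083-77245012) encodes the mineralocorticoid receptor, which binds corticosterone as readily as aldosterone where no enzyme removes the former. The HFD mice had 2.05, 2.28, 1.82, 2.29 and 2.15 log2 CPM, from 84 reads upward, and the IMC-treated mice had 2.47 to 2.87 with a median of 2.68, up to 176 reads. Every IMC-treated mouse was above every HFD mouse, with a gap of 0.18 between the groups. The means of 2.12 ± 0.19 (SD, n = 5) and 2.70 ± 0.15 (SD, n = 6) differed by 0.58 (SE 0.11), a 1.50-fold higher level with IMC. The difference was 0.51 to 0.63 when any single mouse was left out. Per kilobase of exon this receptor had the lowest level of the 9 genes, at -0.58 log2 CPM per kb in HFD mice, beside 4.32 for Nr3c1.

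Hsd11b1 (chr1:193221640-193264045) encodes the reductase that turns inactive 11-dehydrocorticosterone back into corticosterone inside the cell. The HFD mice had 4.84, 4.72, 4.43, 4.97 and 5.08 log2 CPM, and the IMC-treated mice ran from 5.20 through 5.81 to 6.32. The highest HFD mouse and the lowest IMC-treated mouse, number 4, were 0.11 apart, so the groups were separate but close. The means were 4.81 ± 0.25 (SD, n = 5) and 5.77 ± 0.42 (SD, n = 6), a difference of 0.96 (SE 0.18) and a 1.94-fold higher level.

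The genes around this enzyme were measured too and were not members. H6pd, which supplies the NADPH that lets the enzyme work as a reductase, rose from a mean log2 CPM of 8.50 ± 0.07 (SD, n = 5) to one of 8.84 ± 0.05 (SD, n = 6), a difference of 0.34 (SE 0.05, adjusted p = 0.000175, limma), with no overlap between the groups. Hsd11b2, the opposing enzyme that inactivates corticosterone, was near the floor of the table at 0.23 ± 0.15 and 0.46 ± 0.56 log2 CPM, and its difference of 0.23 did not pass (adjusted p = 0.486, limma). Of 9 listed genes for steroid metabolism and transport, 1 rose and 2 fell (33.3% called), with a median difference of -0.16. Those that fell were Abcb1b, a drug and steroid exporter (-0.38, SE 0.08, adjusted p = 0.00345, limma), and Srd5a3 (-0.16, SE 0.05, adjusted p = 0.0145), which acts on polyprenol for protein glycosylation. Abcb1a (0.08), Abcc1 (-0.23) and Srd5a1 (0.03) did not pass. Neither did Cyp11a1 and Star, which start steroid synthesis from cholesterol, with differences of -0.73 (SE 0.29, adjusted p = 0.0596) and -0.57 (SE 0.25, adjusted p = 0.0835).

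Tsc22d3 (chrX:140539528-140600522), the glucocorticoid-induced leucine zipper, is among the most direct readouts of the receptor in many cells. It was at 7.72, 8.04, 7.35, 8.16 and 8.38 log2 CPM in HFD mice and at 7.27 to 8.03 with a median of 7.78 in IMC-treated mice. The groups overlapped over most of their range. The means were 7.93 ± 0.40 (SD, n = 5) and 7.71 ± 0.28 (SD, n = 6), and the difference of -0.22 had a 95% interval from -0.59 to 0.16. HFD mice 4 and 5 had the highest values and IMC mouse 4 the lowest.

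Sgk1 (chr10:21882184-21999903), a kinase that both corticosteroid receptors induce and that phosphorylates Nedd4l, varied least of the target genes in HFD mice. Its values there were 6.73, 6.89, 6.73, 6.77 and 6.87 log2 CPM, and with IMC they were 6.44 to 6.82 with a median of 6.54. In 4 of the 6 IMC-treated mice the level was below all HFD mice, and the remaining pair lay inside the HFD range. The difference was -0.19 (SE 0.07, 95% interval -0.35 to -0.03), and Sgk1 is not among the 4 genes past the threshold.

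Zbtb16 (chr9:48651797-48836225), a transcription factor strongly induced by glucocorticoids in several cell types, was at 5.03, 5.25, 4.91, 4.90 and 6.15 log2 CPM in HFD mice. The IMC-treated mice had 4.80 to 6.32 with a median of 5.30. In each group 1 mouse stood high, HFD mouse 5 and IMC mouse 6, and the other mice lay between 4.80 and 5.53. The difference was 0.13 with a 95% interval from -0.44 to 0.70. It was 0.35 without HFD mouse 5 and -0.06 without IMC mouse 6.

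Rasd1 (chr11:59963181-59964944), a small Ras-like GTPase first known from its induction by dexamethasone, had the largest difference among the members. The HFD mice had 3.82, 3.86, 5.19, 5.37 and 5.53 log2 CPM, and the IMC-treated mice 6.06 to 7.10 with a median of 6.56. All IMC-treated mice were above all HFD mice, by at least 0.52. Within the HFD group 2 mice lay well under the other 3, and the SD there was 0.85 against 0.35 with IMC. The means of 4.76 and 6.59 differed by 1.83 (SE 0.31), a 3.55-fold higher level over a range of 313 to 3327 reads. Rasd1 overlaps Med9 in the annotation, and Med9 was 4.56 ± 0.12 (SD, n = 5) and 4.73 ± 0.09 log2 CPM (SD, n = 6), a difference of 0.17 that did not pass (adjusted p = 0.0502, limma). Nr3c2, Sgk1 and Zbtb16 overlap predicted genes that the table does not list.

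Mt1 (chr8:94178883-94180327) was at 7.28, 6.98, 7.08, 7.16 and 7.63 log2 CPM in HFD mice and at 7.15 to 7.64 with a median of 7.37 in IMC-treated mice. Its difference was 0.15 (SE 0.11, 95% interval -0.09 to 0.39), and the groups overlapped. Mt2 (chr8:94172618-94173567) was at 6.51, 6.34, 6.51, 6.65 and 7.16 log2 CPM in HFD mice and at 6.91 to 7.44 with a median of 7.14 with IMC. Only HFD mouse 5 reached into the range of the IMC-treated mice. The means were 6.63 ± 0.31 (SD, n = 5) and 7.14 ± 0.19 (SD, n = 6), a difference of 0.51 (SE 0.13) and a 1.42-fold higher level. The balance of the pair was compared as the log2 ratio of Mt2 to Mt1 within each mouse. It was -0.78, -0.64, -0.57, -0.51 and -0.48 in HFD mice, and -0.33 to -0.16 with a median of -0.23 with IMC, so every IMC-treated mouse had a higher share of Mt2 than every HFD mouse. The metal content of the tissue was not measured.

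Per kilobase of exon, the metallothioneins led in HFD mice with 7.40 (Mt2) and 6.91 (Mt1) log2 CPM per kb. Tsc22d3 followed at 5.81, then Sgk1 at 4.50, Nr3c1 at 4.32, Rasd1 at 4.07, Zbtb16 at 2.85 and Hsd11b1 at 2.72. The length was the union of all annotated exons of a gene, 588 bases for Mt2 and 1246 for Mt1. In CPM not divided by length, Mt1 was above Mt2 in every mouse, so the order of this pair rests on these lengths. Which exons were used in this tissue was not determined, so the whole order is tied to the annotation. Some neighbouring pairs in this order did not hold in every mouse. Sgk1 exceeded Nr3c1 in 5 of 5 HFD mice but in 2 of 6 with IMC. Nr3c1 exceeded Rasd1 in 2 of 5 HFD mice and in 0 of 6 with IMC, and Zbtb16 exceeded Hsd11b1 in 3 of 5 and 0 of 6.

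**Figure D2:**
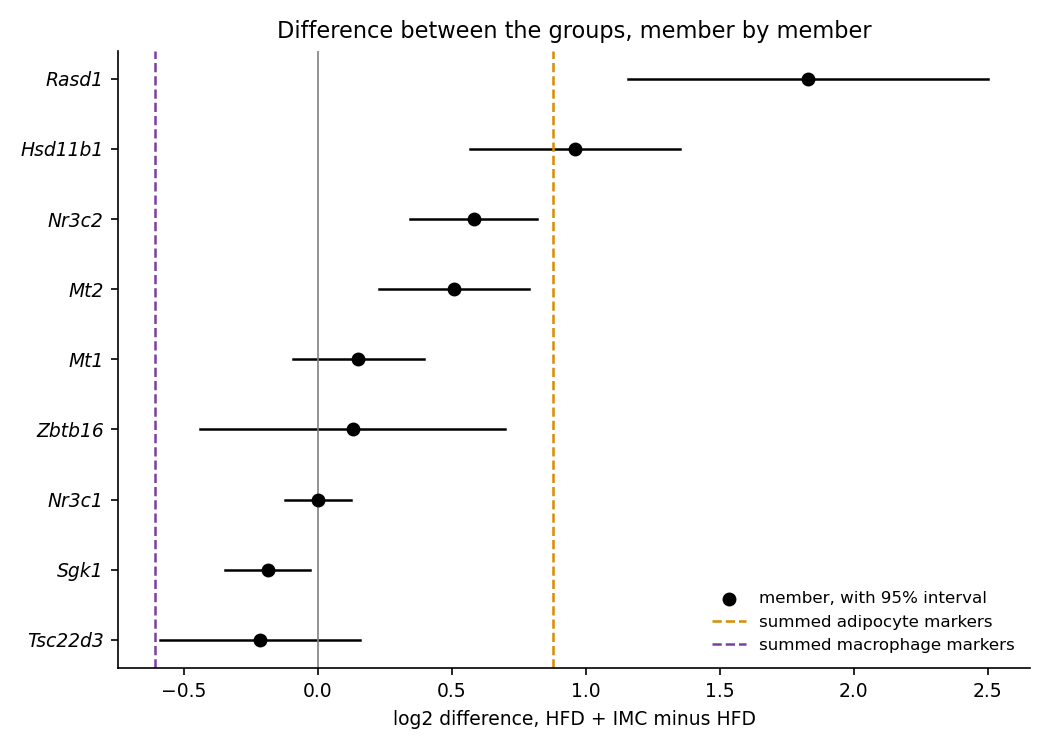
Log2 difference of each member, IMC-treated minus HFD mice, as points with 95% intervals, ordered by size. Dashed lines mark the differences of the summed adipocyte markers (0.88) and summed macrophage markers (-0.61). Rasd1 lies above the adipocyte line, Hsd11b1 close to it, and the other 7 members lie between the 2 lines.

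The cell types of the tissue moved with the groups, and in bulk RNA fewer cells of a type and less RNA per cell cannot be told apart. Summed CPM of 8 adipocyte markers rose from a range of 13.1 to 13.7 log2 in HFD mice to 14.1 to 14.4 with IMC, a difference of 0.88 (two-sided exact permutation test, p = 0.00433 adjusted over 8 lists). All 8 markers rose, among them Adipoq (1.18), Plin1 (0.84) and Cidec (0.87). The sum of 8 macrophage markers fell by 0.61, from 12.9 to 13.3 in HFD mice to 12.1 to 12.8 with IMC (exact permutation test, adjusted p = 0.00693), with 7 of 8 lower, among them Adgre1 (-0.58), Cd68 (-0.61) and Csf1r (-0.32). Mast cell markers fell by 1.40 (6 of 6, with Cpa3 at -1.42, Cma1 at -1.56 and Mcpt4 at -1.34) and fibroblast and progenitor markers fell by 0.35 (4 of 6, with Dcn at -0.32, Col1a1 at -0.37 and Pdgfra at -0.26, the last not passing), each at an exact permutation adjusted p of 0.00433. Of 7 skeletal muscle markers only Myh2 and Acta1 are listed, 2 of 2 higher. Their sum rose by 1.35 from a low level. It was 1 of the 8 lists adjusted together, but its p-value is not given. The authors removed transcripts that stayed under 1 CPM in all samples. Myh2 had -1.36 to -0.64 log2 CPM in HFD mice and 1.38 to 2.69 with IMC. Among these 11 mice it reached 1 CPM only with IMC, so nothing is read from the count of 2 or from a test of the sum. Acta1 had 3.56 to 4.08 log2 CPM in HFD mice and rose by 1.23. The sums of endothelial markers (0.27), brown adipocyte markers (0.38) and mesothelial markers (-0.40) did not pass in the exact permutation test (adjusted p = 0.0569, 0.0569 and 0.251). In limma, Cdh5 rose by 0.41 as 1 of 6 endothelial markers, while Pecam1 (0.18) and Kdr (0.27) did not pass. Cidea and Cox8b rose by 1.15 and 0.40 as 2 of 4 brown adipocyte markers, and Dio2 (-0.35) did not pass. Wt1 fell by 0.57 as 1 of 4 mesothelial markers, and Upk3b (-0.42) and Krt19 (-0.26) did not pass. No lymphocyte or epididymis marker of the lists is listed.

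Set against the adipocyte sum of the same mouse, the members look different. Hsd11b1 minus that sum differed by 0.08 between the groups, and Rasd1 minus the sum by 0.95, each with overlap between the groups. The same quantity was -0.30 for Nr3c2 and -0.37 for Mt2, also with overlap. For Nr3c1 (-0.88), Tsc22d3 (-1.10), Sgk1 (-1.07) and Mt1 (-0.73) the groups did not overlap on this scale, and Zbtb16 was at -0.75 with overlap. The adipocyte sum itself differed by 0.88 without overlap, so a gene with no difference lies at -0.88 here. The separation of these 4 genes is therefore not a trait of theirs, and the share of all genes without overlap on this scale was not counted. The part of the cell types in the differences of the members was not tested.

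The wider glucocorticoid response was followed with 34 further responsive genes from textbook knowledge, of which 31 are listed. This list, like the other gene lists, was written with earlier results of these data known, so its counts are a description. In limma, 8 rose and 4 fell (38.7% called, beside 40.9% over all genes), and the median difference was -0.00. The following genes had some of the smallest p-values in the list, and all rose. Pck1, the glyceroneogenic enzyme, rose by 1.30 (SE 0.18, adjusted p = 0.000152), and Lpin1, a phosphatidate phosphatase, rose by 0.74 (SE 0.11, adjusted p = 0.000232). Angptl4, a lipoprotein lipase inhibitor, rose by 0.33 (SE 0.06, adjusted p = 0.00164), and the transcription factor Foxo1 by 0.42 (SE 0.11, adjusted p = 0.00696). Klf15, Saa3 and Pik3r1 rose too. The 4 that fell were Errfi1 (-0.53), Anxa1 (-0.38), Cdkn1c (-0.46) and Fbxo32 (-0.25). Per1, a clock gene with a glucocorticoid element, was 6.42 ± 0.51 (SD, n = 5) and 6.44 ± 0.37 log2 CPM (SD, n = 6), with a difference of 0.02 (SE 0.22, adjusted p = 0.960).

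Among 26 chaperones and coregulators of the receptor, 4 rose and 5 fell in limma (34.6% called), with a median difference of -0.05. Under scaling to total reads the split was 2 higher and 7 lower, and under median-ratio scaling 5 and 4. The coactivator Ncoa1 rose by 0.26 (SE 0.04, adjusted p = 0.000408), and the corepressor Nrip1 rose by 0.70 (SE 0.13, adjusted p = 0.00111). The inducible chaperone Hspa1a fell by 1.02 (SE 0.20, adjusted p = 0.00166). The co-chaperones Ptges3, or p23, and Fkbp4, which carries the receptor toward the nucleus, fell by 0.36 (SE 0.10, adjusted p = 0.00956) and 0.26 (SE 0.07, adjusted p = 0.0103). Hsp90aa1 (0.06) and Hsp90ab1 (-0.16), the chaperone at the core of the complex, did not pass.

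Of 9 listed genes for zinc transport and metal sensing, 3 fell and none rose (33.3% called), with a median difference of -0.11. They were the importers Slc39a6 (-0.49, SE 0.09, adjusted p = 0.00116, limma) and Slc39a10 (-0.25, SE 0.09, adjusted p = 0.0307) and the vesicular transporter Slc30a7 (-0.14, SE 0.04, adjusted p = 0.0160). Mtf1, the metal sensor that drives metallothionein genes, and its target Slc30a1, a zinc exporter, had differences of 0.09 and -0.11 that did not pass.

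Of 7 listed genes downstream of the mineralocorticoid receptor, 2 rose and 1 fell in limma (42.9% called, median difference -0.11), and 5 were called without IMC mouse 5 or under scaling to total reads, the latter with 2 higher and 3 lower. Nedd4l, the ubiquitin ligase that Sgk1 restrains, rose by 0.42 (SE 0.06, adjusted p = 0.000198), and Tsc22d2, a relative of Tsc22d3, by 0.49 (SE 0.07, adjusted p = 0.000238). The sodium pump subunit Atp1b3 fell by 0.24 (SE 0.07, adjusted p = 0.0145), and Wnk1 (-0.16) did not pass.

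Because glucocorticoids and the clock act on shared genes, 18 listed clock genes were read as well. In limma 3 rose and 3 fell (33.3% called, median difference 0.06), a count of 6 that became 3 without IMC mouse 1. Cry2, a repressor that also binds the glucocorticoid receptor, rose by 0.61 (SE 0.07, adjusted p = 3.64e-05) with no overlap, and Clock by 0.29 (SE 0.05, adjusted p = 0.000803). Rora rose by 0.19 (adjusted p = 0.0407). Bhlhe41 (-0.43), Nr1d2 (-0.19) and Npas2 (-0.46) fell at adjusted p-values of 0.0204, 0.0289 and 0.0308 in limma, while Nr1d1 (0.19, adjusted p = 0.201) did not pass.

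**Figure D3:**
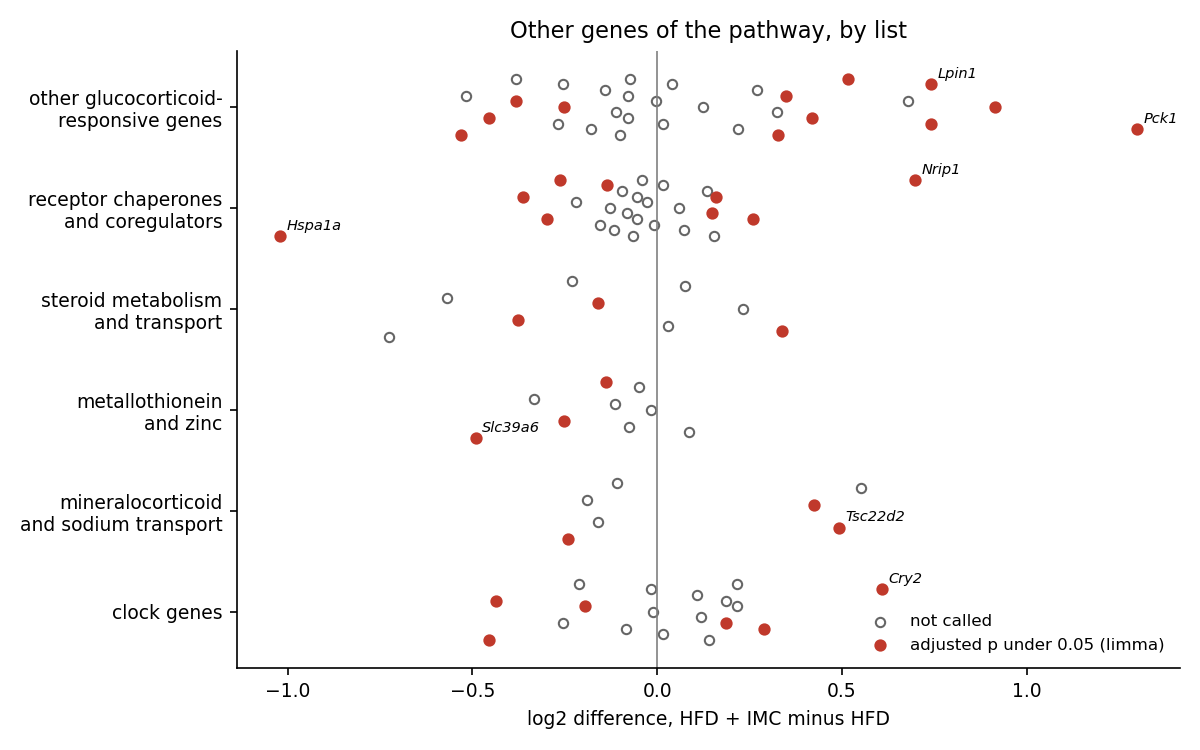
Log2 difference of every listed gene of the 6 pathway lists, IMC-treated minus HFD mice, 1 point a gene and Per1 in 2 lists. Filled red points passed limma at an adjusted p under 0.05 and open points did not, and names mark called genes with an absolute difference over 0.45 and no overlap between the groups. In every list except that of metal genes, called genes lie on both sides of 0.

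Mice of the same group differed from each other along lines that several members shared. In the following, group means were removed and all 11 mice were used, which share 1 table and 1 scaling, so the correlations are descriptions. Of 36 pairs of members, 13 had a Pearson r over 0.5 and 2 had one under -0.5, and the median was 0.40. Mt1 and Mt2 had an r of 0.93 (rho 0.89), and 0.76 without the 2 mice farthest from the median of Mt1. Tsc22d3 went with Nr3c2 (r 0.85, rho 0.85, 0.57 without 2 mice) and with Hsd11b1 (r 0.82, rho 0.79, 0.86 without 2 mice). HFD mouse 5 had the highest value of its group for 6 of the 9 members.

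Nr3c1 and Zbtb16 ran in opposite directions, with an r of -0.78, a rho of -0.83 and -0.95 without the 2 farthest mice. By contrast, Zbtb16 had an r of 0.62 with Mt2 and 0.58 with Mt1 that turned to -0.79 and -0.68 without 2 mice, so these rest on the 2 mice high in Zbtb16. Against the 31 listed responsive genes that are not members, Tsc22d3 had an r over 0.5 with 10, under -0.5 with 2 and between these with 19, with a median of 0.34. Its r was lowest for Anxa1 (-0.60, rho -0.60, -0.51 without 2 mice). It had an r of 0.90 with Per1 (rho 0.88, 0.92 without 2 mice) and 0.92 with Cebpd, an early glucocorticoid-induced factor (rho 0.89, 0.89 without 2 mice). Hsd11b1 had an r over 0.5 with 10 of the 31 and under -0.5 with 3, from -0.81 with Cdkn1a (rho -0.76, -0.50 without 2 mice) to 0.81 with Per1 (rho 0.80, 0.73 without 2 mice). The r of Rasd1 with Tsc22d3 was 0.16 (rho 0.35) and became 0.64 without 2 mice. Rasd1 had an r over 0.5 with 3 of the 31 responsive genes and under -0.5 with 1. They ran from -0.82 with Fbxo32, a ubiquitin ligase subunit (rho -0.89, -0.82 without 2 mice), to 0.77 with Ddit4, a stress-induced inhibitor of mTORC1 (rho 0.73, 0.79 without 2 mice).

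**Figure D4:**
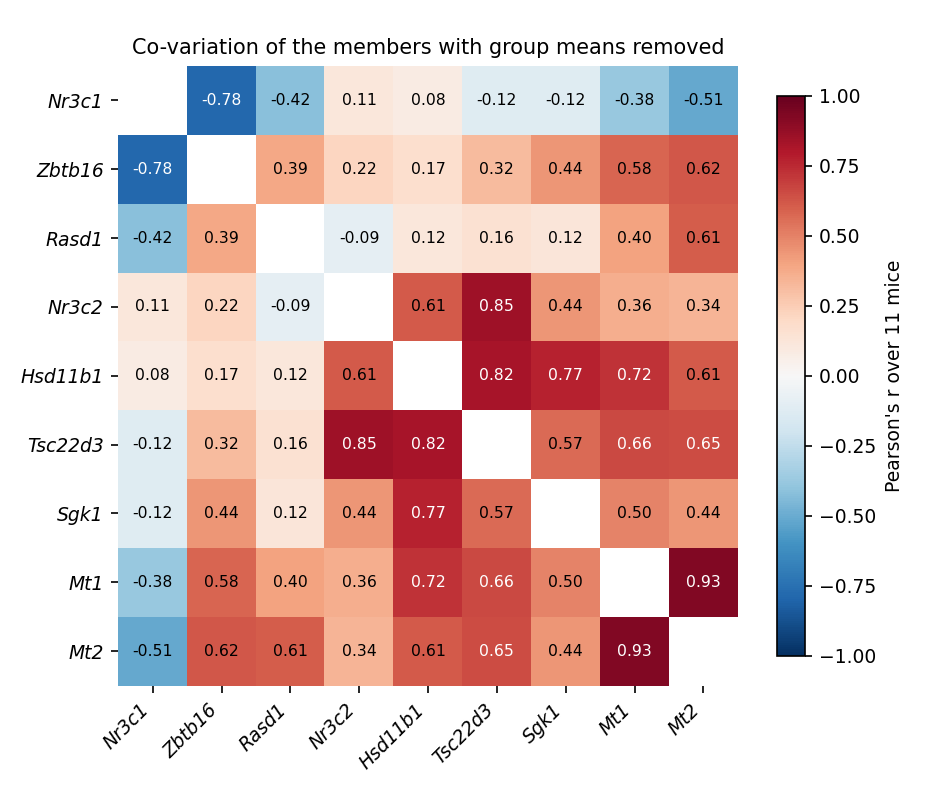
Pearson r of each pair of members over the 11 mice after removal of the group means, red for positive and blue for negative values. The Mt1 and Mt2 pair reaches 0.93, and Nr3c1 with Zbtb16 is lowest at -0.78.

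**Figure D5:**
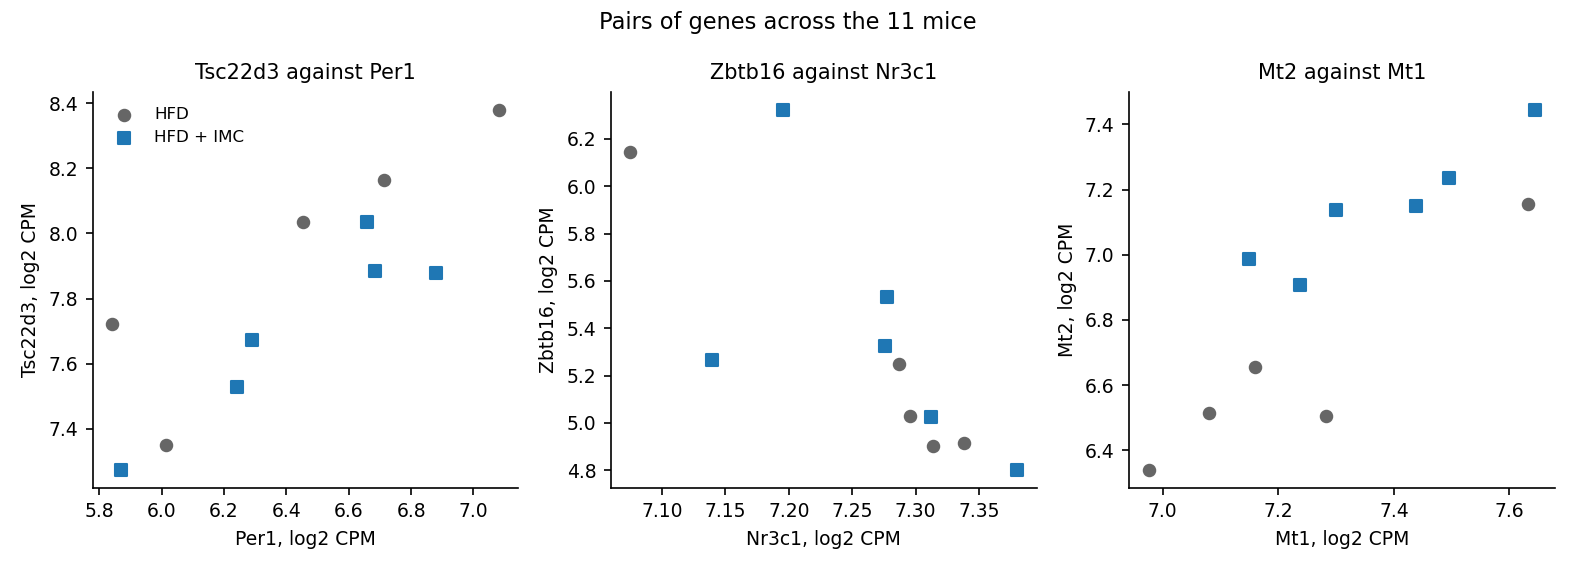
Log2 CPM of 3 gene pairs by mouse, HFD mice as grey circles (n = 5) and IMC-treated mice as blue squares (n = 6). Tsc22d3 rises with Per1 in both groups, Zbtb16 falls with Nr3c1, and for a given Mt1 the IMC-treated mice have more Mt2.

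Cell type markers also varied with the members inside the groups. Sgk1 had an r of -0.88 with the macrophage sum (rho -0.83, -0.77 without 2 mice), and Hsd11b1 had -0.76 (rho -0.82, -0.68 without 2 mice). Tsc22d3 had an r of 0.72 with the adipocyte sum (rho 0.71, 0.67 without 2 mice). Its r with the macrophage sum was -0.71 (rho -0.70, -0.69 without 2 mice). With the adipocyte sum, Sgk1 had an r of 0.50 and Hsd11b1 one of 0.43. The genes closest to each member across the table, by r over the 11 mice, reached 0.90 to 0.99. They were Tpst1, Srf and Abhd13 for Nr3c1, Eci3, Uqcrfs1 and Oxld1 for Nr3c2, and Kin, Edn1 and Uck1 for Hsd11b1. For Tsc22d3 they were Zfp14, Calr4 and Mrpl27, for Rasd1 Ilf2, Tbcc and Lancl1, and for Zbtb16 Mcf2l, Map3k6 and Sox18. Zbtb16 with Map3k6 had an r of 0.94 (rho 0.75) that became 0.56 without 2 mice. The other genes named here as closest were not checked in this way. Mt1 was closest to Phb2, Zfp672 and Ddx49, and Mt2 to Chchd6, Rnf138 and Bag5. The values of Sgk1 lay closest to any other gene, with r of 0.99 to Tst, 0.98 to Clic5 and 0.97 to Cyb561. These genes were found by a search over all 12787 genes with 11 mice.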

How the data were processed

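RNA of gonadal WAT from 5 HFD and 6 IMC-treated mice was sequenced from directional mRNA libraries, and groups were taken from the sample labels. The authors ran Trim Galore, FastQC and STAR (mm10), counted reads per gene, removed low transcripts, scaled libraries by the upper quartile and deposited log2 CPM from edgeR for 12787 genes. The strand setting of the count is not given in the sources used here, so reads of overlapping genes may be shared. The authors also deposited their own log2 fold change, mean log2 CPM, likelihood-ratio score and p-value with FDR, and these were not read.

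The groups were compared with limma 3.58.1 (R 4.3.3; lmFit, eBayes with trend, Benjamini-Hochberg over all genes, threshold 0.05) without a further filter. For summed marker levels and depth, the exact permutation test (two-sided, 462 assignments) was used, which gives no p below 0.00216. Reads were recovered from the CPM steps, with 100% of values whole to within 0.01 reads, and served for depth, read ranges and voom. The alternative scalings were computed from the log2 CPM values. Reads are not independent molecules, so depth covers counting error only. Only the limma comparison was tested on simulated data, in which genes varied independently of each other. Symbols and coordinates came from a RefSeq table (GRCm38.p6). Coding sequences and exon lengths, the union of all annotated exons of a gene, came from GENCODE. Alternatives were other scalings, a filter, an added 2 CPM, no variance trend, voom, a threshold of 0.01 and leaving out each mouse. Python 3.11.15, pandas 2.3.3, scipy 1.17.1 and matplotlib 3.10.9 were used.

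The members and all gene lists were chosen with earlier results of these data known. Named genes were all members, 5 genes of each pathway list, those of smallest p (every gene for steroid metabolism, and Per1 and Nr1d1 for the clock), the first 3 of each marker list, the 3 genes most correlated with each member, and genes overlapping a member, apart from 2 genes of the lists that are not reported here. Klf15, Saa3, Pik3r1, Rora, Hsp90aa1, Hsp90ab1, the 4 responsive genes that fell, Cebpd, Cdkn1a and Ddit4 were named after their values were seen.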

Additional observations from a re-analysis of the deposited data

Results flagged for a closer look

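Of 108 sets of values checked, 8 held a mouse far from the others of its group by Dixon's criterion, which chance alone meets in about 1 in 20 sets. Among the members, HFD mouse 5 was lowest for Nr3c1 at 7.075 log2 CPM, with the next mouse at 7.287. The same mouse was highest in its group for Zbtb16 at 6.145 log2 CPM, with the next at 5.25.

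Among the other genes, Ncoa1 reached 6.259 log2 CPM in IMC mouse 5 (next 6.144), H6pd reached 8.938 in IMC mouse 3 (next 8.846) and Nr1d2 reached 6.355 in HFD mouse 4 (next 6.25). Of the summed marker levels, HFD mouse 3 was highest for fibroblast and progenitor markers at 12.21 log2 CPM (next 12.03) and for mesothelial markers at 8.096 (next 7.723). IMC mouse 4 was highest for skeletal muscle markers at 5.8 log2 CPM (next 5.219).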

How the results depend on the processing

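Of 144 recomputed differences of members, 144 stayed within 1 SD of the reported value. Leaving out 1 mouse of a group cannot move a difference that far, so for those runs the bound tests nothing. In them the difference of Zbtb16 ran from -0.06 to 0.35 and that of Nr3c1 from -0.05 to 0.03. The other members kept their sign. Called members numbered 4 or 5 under every alternative run, beside 3193 to 5463 of the 12787 genes, and nothing is read from this count. At an adjusted p under 0.01, 3193 genes were called in place of 5236, with 5 of the responsive genes, 4 of the receptor complex, 1 of the metal genes and 2 of the clock genes. Scaling to total reads gave 5 mineralocorticoid genes and moved the median difference of all genes from -0.03 to -0.06. Leaving out 1 mouse at a time gave 4299 to 5125 called genes, 10 to 12 responsive genes, 6 to 10 of the receptor complex, 3 to 4 for steroids, 2 to 3 for metal, 3 to 5 mineralocorticoid genes and 3 to 7 clock genes. The endothelial sum ranged from 0.2177 to 0.3397 and passed without HFD mouse 2 (exact permutation adjusted p = 0.0254). The brown adipocyte sum ranged from 0.3039 to 0.4476 and passed without HFD mouse 2 or IMC mouse 5 (exact permutation adjusted p = 0.0490 and 0.0318). The cause of these changes was not tested, apart from the stricter threshold itself. The planned quasi-likelihood test was not run, because the deposited values are not counts, and voom on recovered reads, chosen after seeing the data, took its place. The mouse numbers follow the order of deposition and pair no animals, so no paired analysis was made. No label names separate litters or cages, and the spread between mice is the only error measured.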
